A study of Mus musculus with 50 samples.

Results

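To ask how aging changes open chromatin in the liver, ATAC-seq peaks of 3 old livers were compared with those of 3 young livers, which are 6 of the 50 samples of the study. ATAC-seq maps stretches of DNA that the transposase Tn5 can reach, and a peak is a stretch where cut ends pile up above the local background. The tissue came from untreated female C57BL/6 mice, a widely used inbred strain. The young mice were 2.5 months old and the old mice 23 to 25 months old, and the livers were frozen before nuclei were isolated. Neither group carried a transgene or received an agent. The labels do not say whether each library came from its own animal, so that p-values measure the spread between these libraries. Nuclei were taken from a density gradient and not sorted by cell type, so that a change in the number of cells of a type and a change in the chromatin of those cells cannot be told apart. The members are the 757399 distinct peaks of the 6 libraries, among 1432847 in all ATAC-seq libraries of the study.

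In the liver, hepatocytes make up most of the tissue and share it with sinusoidal endothelial cells, Kupffer cells, which are the resident macrophages, stellate cells and passing leukocytes. Promoters of genes that every cell uses tend to be open in any tissue, whereas open regions away from start sites differ more between cell types and carry binding sites of the factors that define them. HNF1, HNF4, FOXA and C/EBP proteins are the known regulators of hepatocyte genes. SPI1, also called PU.1, is an ETS-family factor required for macrophages, neutrophils and B cells, and AP-1 is a dimer of FOS, JUN, ATF and BATF proteins that responds to stress and inflammation.

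Windows of 201 bases around the summit, the point of highest signal, show the DNA of the regions with the clearest differences, read from the GRCm38 (mm10) plus strand. The first 3 were stronger and the next 3 weaker in old liver, with the smallest p-values among the regions named in the text. The last 2 are shown for their motifs and were chosen after their values were seen, as the weaker regions with the smallest p-value that hold the HNF1 and the HNF4 letters away from start sites. Capitals mark matches on either strand to the 12 motifs searched. The letters were TGANTCA for AP-1, GAGGAAGT for SPI1, ACCGGAAG for ETS, CAAAGTCCA for the HNF4 and RXR direct repeat, GTTAATNAT for HNF1, TGTTTAC for FOXA, TTGCNNAA for C/EBP, AGGTGGCAG for CTCF, CCAATCA for NFY, GCGCATGCG for NRF1, GGGGCGGGG for SP1 and KLF and GGGAATTTC for NF-kB. The SPI1 and ETS letters share a GGAAG core.
Sspn, stronger, chr6:146222025-146222225, intron of Itpr2: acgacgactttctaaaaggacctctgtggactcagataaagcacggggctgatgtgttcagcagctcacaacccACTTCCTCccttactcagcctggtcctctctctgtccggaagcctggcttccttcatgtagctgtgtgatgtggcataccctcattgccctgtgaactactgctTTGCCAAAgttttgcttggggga
Sh2d4b, stronger, chr14:40818094-40818294, intron of Sh2d4b: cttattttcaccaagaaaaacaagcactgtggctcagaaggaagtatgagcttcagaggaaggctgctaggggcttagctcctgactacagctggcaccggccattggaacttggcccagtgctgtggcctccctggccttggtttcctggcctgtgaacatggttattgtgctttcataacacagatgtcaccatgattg
Camk2d, stronger, chr3:126630209-126630409, intron of Camk2d: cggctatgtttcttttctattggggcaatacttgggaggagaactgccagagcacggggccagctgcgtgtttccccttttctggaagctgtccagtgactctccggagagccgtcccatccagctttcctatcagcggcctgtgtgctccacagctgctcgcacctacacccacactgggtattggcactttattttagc
Kdm8, weaker, chr7:125237144-125237344, intergenic: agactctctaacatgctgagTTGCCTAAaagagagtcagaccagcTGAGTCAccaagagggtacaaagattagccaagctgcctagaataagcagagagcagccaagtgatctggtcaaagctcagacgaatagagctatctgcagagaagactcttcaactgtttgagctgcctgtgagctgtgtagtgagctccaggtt
Exoc6b, weaker, chr6:84841189-84841389, intron of Exoc6b: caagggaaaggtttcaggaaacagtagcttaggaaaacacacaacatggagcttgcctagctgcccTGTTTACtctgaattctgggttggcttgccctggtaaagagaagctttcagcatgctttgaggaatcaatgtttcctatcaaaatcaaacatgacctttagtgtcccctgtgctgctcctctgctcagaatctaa
Rtl1, weaker, chr12:109856354-109856554, intergenic: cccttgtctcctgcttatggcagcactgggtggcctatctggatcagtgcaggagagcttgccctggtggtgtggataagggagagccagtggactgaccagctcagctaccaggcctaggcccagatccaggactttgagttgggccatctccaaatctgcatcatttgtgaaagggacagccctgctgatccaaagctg
Rasgef1b, weaker, chr5:99542124-99542324, intron of Rasgef1b: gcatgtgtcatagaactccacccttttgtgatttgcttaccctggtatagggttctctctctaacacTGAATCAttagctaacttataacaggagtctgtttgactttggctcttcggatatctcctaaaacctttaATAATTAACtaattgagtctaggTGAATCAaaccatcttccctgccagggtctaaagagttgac
Igfbp3, weaker, chr11:7758959-7759159, intergenic: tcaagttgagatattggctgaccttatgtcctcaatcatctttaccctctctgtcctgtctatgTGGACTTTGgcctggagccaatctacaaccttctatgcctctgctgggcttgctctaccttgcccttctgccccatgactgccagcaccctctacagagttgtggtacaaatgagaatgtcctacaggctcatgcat
Each region carries the name of the protein-coding gene with the nearest start site. That site was 32895 bp away for Camk2d, 207432 for Kdm8, 228224 for Exoc6b, 256124 for Rtl1, 268696 for Sspn and 545136 for Igfbp3. The Sspn window held the SPI1 and C/EBP letters, the Kdm8 window the AP-1 and C/EBP letters and the Exoc6b window the FOXA letters. The Rasgef1b window held the HNF1 and AP-1 letters and the Igfbp3 window the HNF4 letters. The windows near Sh2d4b, Camk2d and Rtl1 held none of the 12.

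The libraries were of like depth. The number of mapped read ends, estimated from the background level used in peak calling, ranged from 40.6 to 49.7 M in young and from 42.2 to 49.1 M in old livers. One library stood apart. Over the peaks shared by all 6 libraries, summit strengths of old replicates 1 and 3 correlated at r = 0.75 and those of the young livers at 0.75 to 0.76, whereas old replicate 2 correlated at 0.69 to 0.71 with the young livers and at 0.68 with both other old livers. These are correlations across 34822 regions of single libraries, given as a description. Old replicate 2 also had the fewest peaks. In the distal regions with the SPI1, HNF1, HNF4 or FOXA letters, described below, it stood outside the young range on the side of the other old livers. With the SPI1 letters it read -0.10 against -0.30 in each young liver on a log2 scale, and with the HNF1 letters 0.10 against 0.25 to 0.33. It is called by its label, and many of the values that it moved are also given without it.

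The number of peaks did not separate the ages. Young livers had 130338, 123776 and 130409 distinct peaks, and old livers had 136849, 112125 and 123902. The means were 128174 ± 3809 and 124292 ± 12367 (SD, n = 3), and the ages overlapped (exact two-sided permutation test, p = 0.8). With 3 libraries against 3, 0.1 is the smallest p that this test allows. The old minus young difference was -3882 peaks, and it was 2201 without old replicate 2. With the −log10 q required to reach 5, the libraries kept fewer, strong peaks, which were 48331, 43550 and 43297 in young and 43098, 37959 and 38296 in old livers. Every old library had fewer strong peaks than every young one (exact permutation test, p = 0.1).

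To compare the libraries at equal size, the 112125 peaks with the smallest p-values were taken from each. Their median width was 309 ± 6.03 bp in young and 294 ± 15.4 bp in old livers (SD, n = 3, exact permutation test, p = 0.2), a difference of -15.7 bp, and of -6.83 bp without old replicate 2. Their median fold enrichment, the signal at the summit over the local background, was 3.05 ± 0.17 and 2.96 ± 0.0925 (p = 0.5, same exact test), a difference of -0.0881, and of -0.0365 without old replicate 2. Among the 50000 and the 20000 strongest peaks the difference was -0.333 and -0.48, with overlap (same exact test, p = 0.2 and 0.4). Summits within 1 kb of a gene start site, called promoter peaks below, made up 17.6 ± 0.168% in young and 18.2 ± 0.788% in old livers (exact permutation test, p = 0.3). The difference was 0.583 percentage points, and 0.128 without old replicate 2. Introns held 42.8 ± 1.55% and 42.1 ± 0.598% of the summits, and intergenic sequence held 36.0 ± 1.92% and 36.1 ± 0.381%. All 5 of these measures overlapped between the ages.

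Placement differed among the strongest peaks. Of the 5000 strongest peaks, promoters held 44.8%, 54.4% and 46.3% in the young livers and 66.3%, 59.6% and 60.1% in the old livers. Every old library was above every young one, by 13.5 percentage points on average and by 14.7 without old replicate 2 (exact permutation test, p = 0.1). In ranks 5001 to 20000 the shares were 31.5%, 34.3% and 33.7% against 38.2%, 36.7% and 36.3%, again without overlap. The order was the other way in ranks 20001 to 50000, with means of 20.5 ± 0.725% and 18.6 ± 1.39%, where the ages overlapped. In the weakest band the means were 9.96 ± 0.24% and 9.91 ± 1.1%, a difference of -0.0504 percentage points, and of -0.681 without old replicate 2. The peaks of the third band were also narrower in old liver, with median widths of 338, 363 and 366 bp in young and 334, 306 and 334 bp in old livers.

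**Figure D1:**
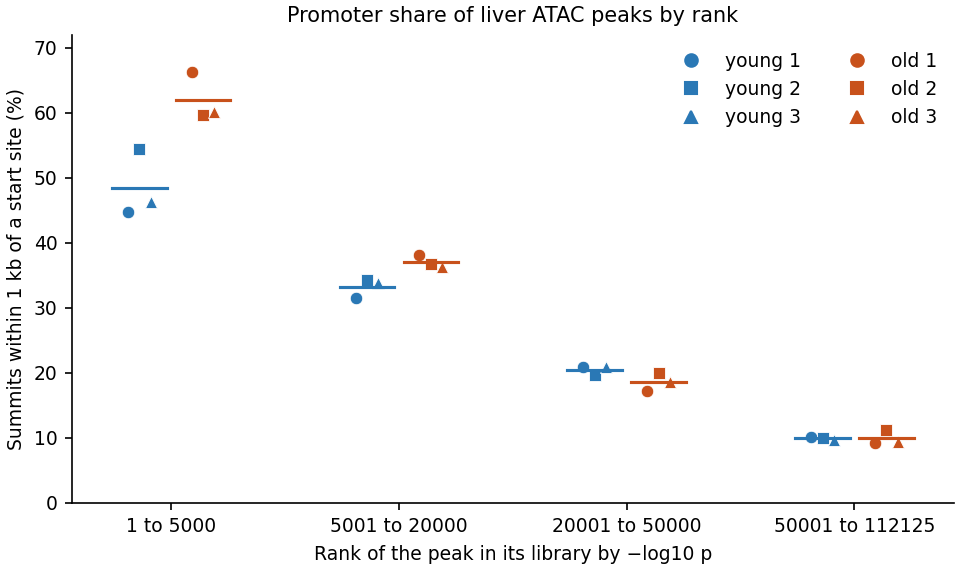
Share of liver ATAC-seq summits within 1 kb of a start site (vertical axis, percent) in 4 bands of peak rank (horizontal axis), with a point for each library and a bar for each age mean. The 3 old libraries, at 59.6% to 66.3%, lie above the 3 young ones among the 5000 strongest peaks, and the ages meet in the last 2 bands.

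A like shift was present in the kidney of the same study. Among the 20000 strongest peaks, promoter peaks were more frequent in old than in young organs by 6.32 percentage points in the liver and by 5.26 in the kidney. The liver minus kidney difference was 1.06 percentage points (p = 0.79, two-sided exact test over the 400 labellings of age within each organ). At 93072 peaks per library, the differences between the organs were 17.7 bp for median width (p = 0.51), 0.36 for median fold enrichment (p = 0.29) and -0.0437 percentage points for promoter share (p = 0.985, exact permutation tests). Without old liver replicate 2 they were 25.8 bp, 0.416 and -0.456 percentage points (exact permutation tests, p = 0.3, 0.235 and 0.57). P-values of this size do not show that both organs changed alike.

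On average, liver libraries of 1 age shared more of their peaks than libraries of different ages, but old replicate 2 did not. At equal numbers of top peaks, the overlapping share of the union was 38.4% to 39.0% for pairs of young livers, 33.3% to 36.4% for pairs of old livers and 31.7% to 35.2% for pairs across ages. Old replicate 2 shared 34.5% to 35.2% with the young livers, 34.5% with old replicate 1 and 33.3% with old replicate 3. Same-age pairs exceeded the others by 3.24 percentage points, and by 5.28 without old replicate 2 (exact permutation test, p = 0.1 for both). Joining overlapping peaks of all 6 libraries gave 353652 regions. Of these, 220175 had a peak in 1 library, 105961 had a peak at both ages and 34822 had a peak in all 6. Regions present in all 3 young and in no old liver numbered 3482, and the reverse held for 1922.

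The 34822 regions with a peak in all 6 libraries, called shared regions, allowed a region to be followed at both ages. Each library was read at its strongest summit in the region, which could lie at another place than in other libraries. Summit fold enrichment was compared on the log2 scale after each library's median had been set to 0, with limma across all shared regions. In old liver 205 regions were stronger, 0.589% of those tested, and 683 were weaker, 1.96%, at an adjusted p below 0.05. The stronger regions rose by a median of 0.94 and the weaker regions fell by a median of 0.96 on the log2 scale. Without centring the split was 126 stronger and 1023 weaker, and with the recovered summit pileup in place of fold enrichment it was 901 and 1468. Among 24577 regions where every library had a summit within 100 bp of the strongest one, it was 177 and 483. Regions in which all 3 centred old values exceeded all 3 young ones made up 10.9% of the shared regions, and those with the opposite order made up 11.5%.

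These counts depended on single libraries. Leaving out young replicate 1, 2 or 3 gave 8, 44 or 13 stronger and 54, 162 or 51 weaker regions. Leaving out old replicate 1 or 3 gave 26 or 13 stronger and 148 or 127 weaker regions. Without old replicate 2 the counts rose to 593 and 1691, and 190 of the 205 stronger and 655 of the 683 weaker regions were among them.

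Weaker regions lay mostly away from promoters. Of the 683 weaker regions, 350 were intronic, 266 intergenic, 44 at promoters and 23 exonic. Of the 205 stronger ones, 93 were intronic, 66 intergenic, 41 at promoters and 5 exonic. Promoters made up 35.1% of all shared regions, 20.0% of the stronger and 6.44% of the weaker ones. Among the 12211 shared promoter regions, 0.696% were called, 0.336% stronger and 0.36% weaker, and after centring all 3 old values lay above all 3 young ones in 14% and below in 5.16%. The balance of calls at promoters, 41 stronger and 44 weaker, turned with the scale, being 270 and 155 with pileup, 23 and 72 without centring and 102 and 251 with pileup per 10 M read ends and no centring. It was 2 and 4, 8 and 8 or 4 and 2 without young replicate 1, 2 or 3, 2 and 7 or 1 and 6 without old replicate 1 or 3, and 162 and 131 without old replicate 2. The median log2 change was 0.11 at promoters, -0.05 in introns, -0.05 between genes and -0.03 in exons.

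The balance between promoters and other shared regions was then measured in each library. Median log2 fold enrichment at promoters exceeded that of the other 22611 shared regions by 0.06, 0.16 and 0.11 in the young livers and by 0.38, 0.20 and 0.29 in the old livers. The ages did not overlap, and the difference was 0.18 with all libraries and 0.22 without old replicate 2 (exact permutation test, p = 0.1). GC content moved with this result. After each library's trend over the GC content of the region was removed, the difference was 0.07, still without overlap, and the part of GC content in the result was not tested further. On the linear scale, median fold enrichment at promoters was 4.97 ± 0.27 in young and 5.14 ± 0.461 in old livers, and away from promoters it was 4.61 ± 0.404 and 4.19 ± 0.12 (SD, n = 3). Both of these overlapped between ages. Median widths away from promoters were 381, 411 and 406 bp in young and 375, 344 and 374 bp in old livers, without overlap.

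**Figure D2:**
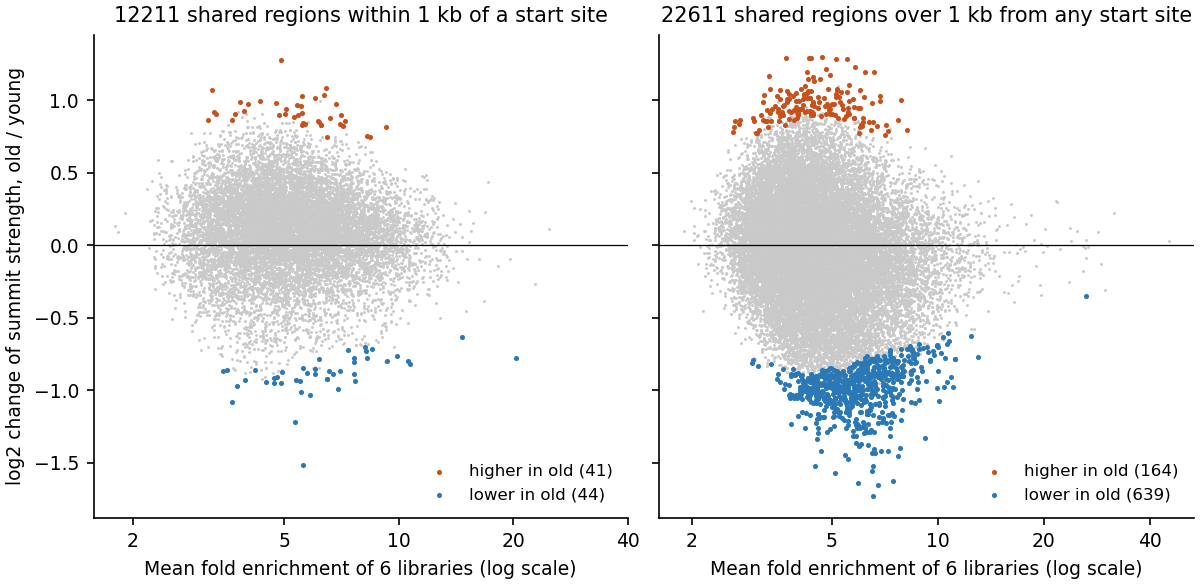
Change of summit strength between ages (vertical axis, log2 of old over young) against mean fold enrichment of the 6 libraries (horizontal axis, log scale), for the 12211 shared regions at promoters and the 22611 away from them, with a point for each region. Coloured points passed the limma test, 41 stronger and 44 weaker at promoters and 164 stronger and 639 weaker elsewhere.

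Shared regions were cut into 5 bins of like size by mean fold enrichment. They had to hold a peak in all 6 libraries, so that a weak region whose summit fell below the limit of peak calling in old liver was not among them. The shares of weaker calls in the weak bins are bounded by that choice and are given as a description. In the weakest bin, 31 of 5151 distal regions were stronger and 7 weaker in old liver, or 0.602% and 0.136%. In the strongest bin, 14 of 3674 were stronger and 231 weaker, or 0.381% and 6.29%, and in the bin next to it 5.33% were weaker. The median log2 change of regions away from promoters went from 0.03 in the weakest to -0.14 in the strongest bin, and that of promoters was 0.09 and 0.07.

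Regions that were open in liver but not in kidney weakened more often than the rest. No kidney library, young or old, had a peak at 2571 of the shared liver regions, and all 6 kidney libraries had one at 23876. Among regions without a kidney peak, 184 were weaker and 8 stronger in old liver, or 7.16% and 0.311%, against 1.96% and 0.589% of all shared regions. Of the 683 weaker regions, 26.9% had no kidney peak, as did 3.9% of the 205 stronger and 7.38% of all shared regions. Away from promoters, the median log2 fold enrichment of regions without a kidney peak, relative to all distal shared regions, was -0.09, -0.05 and -0.09 in young and -0.35, -0.16 and -0.35 in old livers. Every old library was below every young one, with a difference of -0.21, and of -0.27 without old replicate 2 (exact permutation test, p = 0.1). With the GC trend removed, the difference was -0.20. The distal regions open in all 6 kidney libraries differed by 0.02 between the ages, with overlap.

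Motif letters separated the distal shared regions further. Letters and place were read at the strongest summit that any of the 6 libraries had in a region. The age with the stronger summit can therefore decide which group a region joins, and the effect of this was not tested. Regions holding the SPI1 letters, 987 in number, had a median log2 fold enrichment of -0.30 in each of the 3 young livers relative to all distal shared regions, and of 0.15, -0.10 and 0.13 in the old livers. Every old library was above every young one, by 0.36 on average, by 0.44 without old replicate 2 and by 0.37 with the GC trend removed (exact permutation test, p = 0.1). Of these regions 29 were stronger and 6 weaker, or 2.94% and 0.608%, against 0.725% and 2.83% of all distal shared regions. Within the 164 stronger distal regions, 17.7% held the SPI1 letters, against 4.37% of all distal shared regions and 0.939% of the 639 weaker ones.

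Of the hepatocyte motifs, HNF1, HNF4 and FOXA showed the opposite order, whereas C/EBP, with 2667 distal regions, differed by -0.04 with overlap. The 274 distal regions with the HNF1 letters stood at 0.25, 0.33 and 0.33 in the young livers and at -0.17, 0.10 and -0.24 in the old livers on the same relative log2 scale. Of these, 34 were weaker and none stronger, and the differences were -0.41 with all libraries and -0.51 without old replicate 2 (exact permutation test, p = 0.1). The 216 regions with the HNF4 and RXR direct repeat went from 0.15, 0.18 and 0.10 to -0.30, -0.02 and -0.28, with 20 weaker and none stronger, a difference of -0.34, and of -0.43 without old replicate 2. At an unadjusted limma p below 0.05, the HNF1 group held 4 stronger and 125 weaker regions and the HNF4 group 2 and 82, against 1854 and 3392 of the 22611 distal shared regions. The 1132 regions with the FOXA letters went from 0.04, 0.09 and 0.04 to -0.11, -0.02 and -0.15, with 62 weaker and 7 stronger, a difference of -0.15, and of -0.18 without old replicate 2. Weaker regions made up 12.4% of the HNF1, 9.26% of the HNF4 and 5.48% of the FOXA group, against 2.83% of all distal shared regions. In each of the 3 groups, old replicate 2 lay between the young livers and both other old livers.

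The remaining motifs were read in the same way. The 1879 distal regions with the AP-1 letters went from -0.10, -0.05 and -0.07 in young to 0.03, -0.02 and 0.00 in old livers, a difference of 0.08 without overlap. Calls went both ways there, with 28 stronger and 54 weaker regions, and the AP-1 letters were in 17.1% of the stronger, 8.45% of the weaker and 8.31% of all distal shared regions. The ETS letters gave a difference of 0.15 over 111 regions, without overlap. The SP1 and KLF letters gave 0.12, which was 0.01 once the GC trend was removed. C/EBP, with 2667 regions, differed by -0.04 and CTCF, the insulator protein, by -0.01 over 654 regions, both with overlap, and CTCF by 0.00823 without old replicate 2. For C/EBP the ages did not overlap with the GC trend removed (-0.04) or without old replicate 2 (-0.06). NFY differed by -0.05, without overlap. NRF1 differed by 0.18 over 46 regions, but by 0.06 with overlap once the GC trend was removed, and by 0.09 without young replicate 1. NF-kB differed by 0.08 over 36 regions, with overlap, and by 0.12 without old replicate 2.

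**Figure D3:**
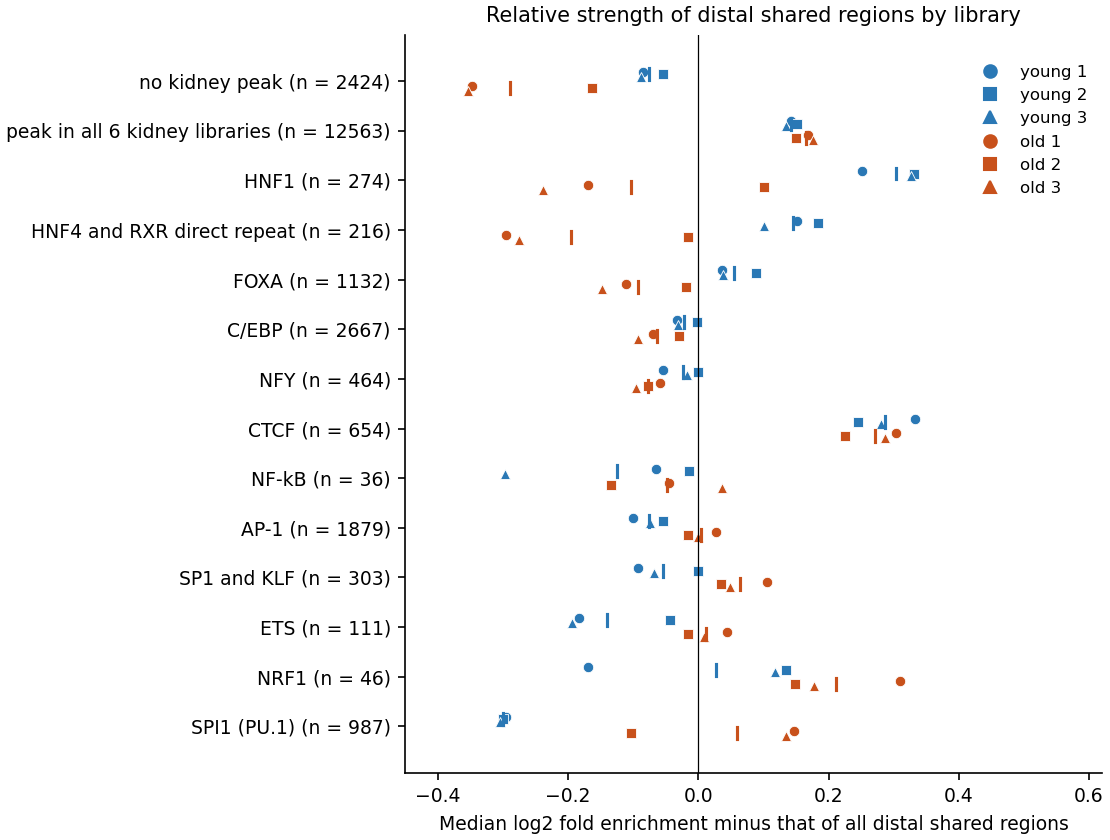
Median log2 fold enrichment of groups of distal shared regions minus that of all distal shared regions (horizontal axis), for groups by kidney peaks and by motif letters (vertical axis, number of regions in brackets), with a point for each library and a bar for each age mean. Young and old points separate at the HNF1, HNF4, FOXA and SPI1 rows and for regions without a kidney peak, with old replicate 2 between the others.

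The same letters were counted around all top peaks, which include regions absent from some libraries. Among the 20000 strongest peaks, the SPI1 letters lay within 100 bp of the summit in 1.97%, 1.775% and 1.785% of the young and 5.025%, 2.86% and 5.095% of the old peaks. The HNF1 letters did so in 1.41%, 1.5% and 1.485% of the young and 0.40%, 0.905% and 0.325% of the old peaks, the HNF4 repeat in 0.997 ± 0.0482% and 0.375 ± 0.204%, and the FOXA letters in 4.45 ± 0.118% and 2.97 ± 0.473%. At 112125 peaks, the old livers had more AP-1 (6.99 ± 0.0389% in young, 7.44 ± 0.295% in old), SPI1 (3.05% and 4.15%), ETS (0.621% and 0.753%), NRF1 (0.323% and 0.374%) and NF-kB letters (0.144% and 0.163%). They had fewer HNF4 (0.863% and 0.557%), HNF1 (1.04% and 0.626%), FOXA (3.95% and 3.30%) and C/EBP letters (9.91% and 9.10%). For these 9 motifs the ages did not overlap (exact permutation test, p = 0.1 for each, 0.133 after Benjamini-Hochberg adjustment over 12 motifs). CTCF, NFY and SP1 and KLF letters overlapped between ages, as the SPI1 letters did when only 50 bp on either side of the summit were searched. NF-kB letters overlapped among the 20000 strongest peaks and among distal summits. SP1 and KLF letters separated the ages among the 20000 strongest peaks, and CTCF letters did so among distal summits. For scale, windows of the same length centred on annotated start sites held the AP-1 letters in 4.75%, the SPI1 letters in 2.07%, the HNF1 letters in 0.439% and the FOXA letters in 1.93% of cases. A match to short letters is not a bound site.

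The distal regions with the smallest p-values among the gains lay in introns. The region near Sspn (chr6:146221906-146222712), in an intron of Itpr2, which encodes an inositol trisphosphate receptor, had a fold enrichment of 3.00, 2.53 and 3.70 in young and 7.396, 5.55 and 8.67 in old livers (log2 change 1.29 ± 0.24 SE, limma adjusted p = 0.00957). An intronic region of Sh2d4b read 3.93, 4.28 and 2.65 in young and 7.80, 7.404 and 8.71 in old livers (1.23 ± 0.23, adjusted p = 0.00957). One in Camk2d, a calcium/calmodulin-dependent kinase gene, rose from 2.23 ± 0.518 to 5.16 ± 0.685, and one in Bach2, the gene of a transcriptional repressor of lymphocytes, from 2.10 ± 0.273 to 4.51 ± 0.666. In each region all 3 old values lay above all 3 young ones. These 4 calls held in 13 or 14 of 15 alternatives, and their highest adjusted p lay between 0.0572 and 0.0735.

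The 4 named distal losses were larger on the log2 scale. The intergenic region near Kdm8 (chr7:125236723-125237429) read 13.7, 8.39 and 12.2 in young and 3.999, 3.37 and 3.09 in old livers (log2 change -1.63 ± 0.21 SE, limma adjusted p = 0.000836). An intronic region of Exoc6b, an exocyst gene, had no kidney peak and fell from 15.2, 12.3 and 12.5 to 5.599, 5.05 and 4.54 (-1.33 ± 0.18, adjusted p = 0.000836). The region nearest to Rtl1 had no kidney peak either and fell from 10.4 ± 2.05 to 3.12 ± 0.371. The intronic region of Rasgef1b, with the HNF1 and AP-1 letters printed above, fell from 13.3, 7.92 and 9.17 to 4.16, 2.36 and 2.36 (-1.73 ± 0.24, adjusted p = 0.00119). The region nearest to Igfbp3, with the HNF4 letters, fell from 8.83 ± 1.32 to 3.30 ± 0.814 (-1.37 ± 0.24, adjusted p = 0.00565). These 5 regions kept their direction in all 15 alternatives read for named regions, and the first 4 also kept an adjusted p below 0.05.

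Promoters with stronger summits in old liver belonged to genes of varied function. The promoter of Sema3d (chr5:12383100-12384200), which encodes a secreted guidance molecule, had a fold enrichment of 4.39, 3.48 and 4.93 in young and 8.69, 8.11 and 8.91 in old livers (log2 change 1.08 ± 0.21 SE, limma adjusted p = 0.0113). Ccser2 read 5.06, 4.62 and 5.52 against 9.16, 8.65 and 9.29 (0.90 ± 0.20, adjusted p = 0.0188). Actr6, a subunit of the chromatin remodeler SRCAP, read 4.04, 3.60 and 3.94 against 7.33, 6.94 and 7.31, with the ETS letters at its summit. Anks6, a ciliary protein, rose from 4.22 ± 0.325 to 8.49 ± 2.34, Ttll1, a tubulin-modifying enzyme, from 4.85 ± 1.51 to 8.87 ± 1.55, and Cep85l, a centrosomal protein, from 5.25 ± 0.322 to 9.22 ± 1.82. Edem2, which acts on misfolded glycoproteins in the endoplasmic reticulum, rose from 4.73 ± 0.333 to 8.43 ± 1.62. Cpsf1, of the polyadenylation complex, rose from 4.49 ± 0.403 to 7.80 ± 0.688, and Rad1, of the DNA damage checkpoint clamp, from 6.98 ± 1.98 to 11.5 ± 1.25. Fam189b rose from 2.97 ± 1.35 to 6.82 ± 2.71, but its ages separate only after centring, because young replicate 1 at 4.497 exceeded old replicate 2 at 4.34. Each of these 10 promoters also had a peak in all 6 kidney libraries, as did 11313 of the 12211 shared promoter regions. The calls held in 8 to 13 of 15 alternatives, and their highest adjusted p lay between 0.0553 and 0.133.

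The promoters with weaker summits were read by the same rule. Crybg1 (chr10:44148718-44149310) had a fold enrichment of 8.62, 7.76 and 8.64 in young and 2.08, 3.37 and 3.09 in old livers (log2 change -1.52 ± 0.24 SE, limma adjusted p = 0.00338). Gimd1, with the HNF4 letters at its summit, read 6.93, 8.39 and 7.41 against 2.72, 3.37 and 3.27 (-1.22 ± 0.23, adjusted p = 0.0107). Scnn1g, a subunit of the epithelial sodium channel, fell from 13.7 ± 1.72 to 7.53 ± 1.14, and Cpe, a prohormone-processing carboxypeptidase, from 12.7 ± 1.75 to 7.14 ± 1.18. Erc2 and Rims1, both of the presynaptic active zone, fell from 7.48 ± 0.388 to 3.57 ± 0.502 and from 10.1 ± 1.49 to 5.21 ± 0.824, and both held the AP-1 letters. S100a16, a calcium-binding protein, fell from 13.9 ± 3.82 to 7.51 ± 1.80, Nup62cl from 10.1 ± 1.36 to 5.29 ± 2.22, and Slc2a12, a glucose transporter, from 7.34 ± 1.5 to 3.63 ± 0.328. Mc5r, a melanocortin receptor, fell from 18.1 ± 4.01 to 11.2 ± 2.43. In all 10 the old values lay below the young ones, and Crybg1 kept its call in all 15 alternatives, the others in 10 to 13.

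**Figure D4:**
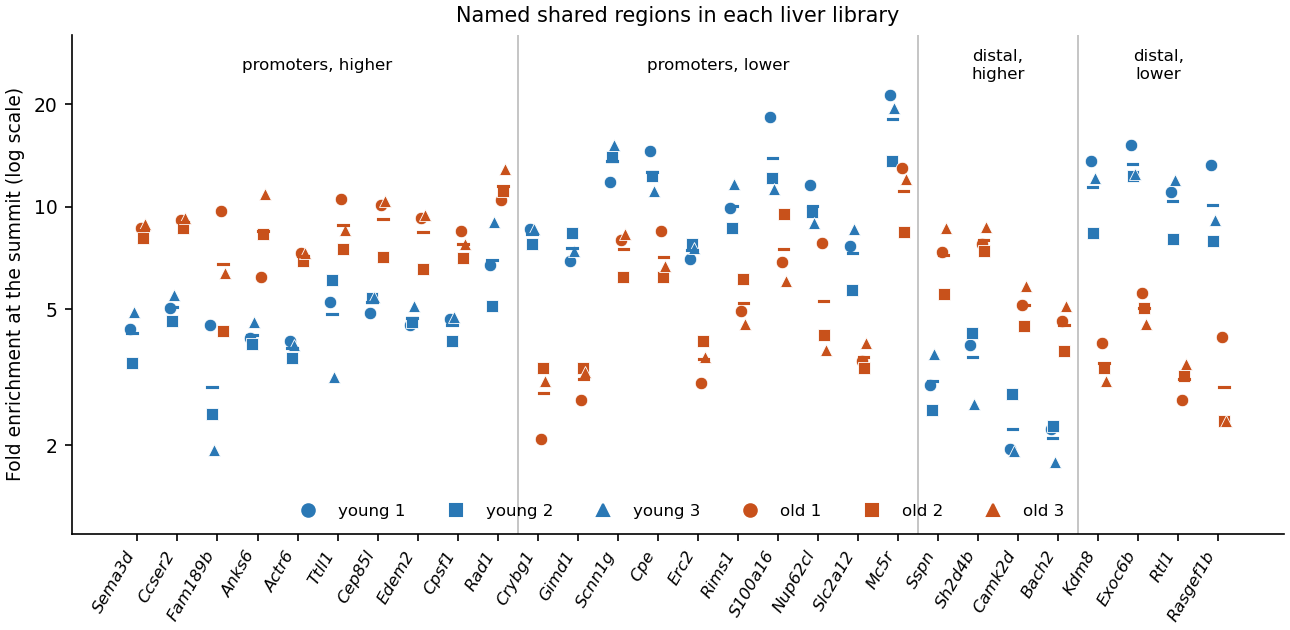
Fold enrichment at the summit (vertical axis, log scale) of the 20 named promoters and 8 named distal regions (horizontal axis) in each of the 6 liver libraries, with a bar for each age mean. The ages do not overlap in any of the 28 except Fam189b, where young replicate 1 at 4.497 exceeds old replicate 2 at 4.34.

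Genes with a called promoter were then looked up in liver RNA. RNA-seq of 4 young and 4 old livers of the same ages, with 20168075 to 26676371 counted reads per library, was tested with edgeR, and a gene was called at an adjusted p below 0.05 with a fold above 2 or below 0.5. By that rule 1.69% of 12537 genes were higher and 0.439% lower in old liver, or 212 and 55 genes. The counts were 91 and 48 with the replicate block and 483 and 112 with DESeq2. Higher genes numbered 59, 65, 48 and 105 without young replicate 1, 2, 3 and 4, and 365, 124, 76 and 267 without old replicate 1, 2, 3 and 4, and lower genes 28 to 79. Of 33 named genes with a stronger promoter, 31 were tested in RNA, none was higher and 1 was lower. Of 26 with a weaker promoter, 15 were tested and none was called. Among all 9164 tested genes with a shared promoter, 0.938% were higher and 0.153% lower, so that counts near 0 in sets of this size are near the background. At an unadjusted edgeR p below 0.05, 2 of the 31 were higher and 2 lower, and none of the 15 was higher and 1 lower. DESeq2 with the same thresholds called none higher in either set, and 1 lower in each. The median RNA changes were -0.01 and 0.01 on the log2 scale. The gene that was called, Adck5, was named after its values were seen. Its promoter was stronger (log2 change 0.94 ± 0.23, limma adjusted p = 0.0318) and its RNA fell from 37.4 ± 7.54 to 13.9 ± 4.19 CPM (counts scaled to a common library size, SD, n = 4, edgeR adjusted p = 0.0132). Whether the RNA and ATAC libraries came from the same animals is not stated.

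Promoters of 24 gene lists were read in the same way, taking the shared region with the highest mean signal where a gene had several. The median over all shared promoters, against which the lists are read, was 0.11, and 0.336% and 0.36% of them were called stronger and weaker. One member of any list passed the adjusted p. Batf2, an AP-1 family gene, rose from 3.19, 2.69 and 2.47 to 4.80, 4.54 and 5.81 (log2 change 0.93 ± 0.24 SE, limma adjusted p = 0.036). Its call held in 10 of 15 alternatives, and was lost without old replicate 1 or 3 or any young replicate, where its adjusted p reached 0.145. Of the 12 AP-1 family genes, 8 had a shared promoter, with a median of 0.23 and 7 values above 0. The ETS family had 10 of 14, with a median of 0.15, and its smallest p-value was at Ets1, with 12.3, 13.3 and 11.04 in young and 11.1, 8.61 and 7.47 in old livers (-0.38 ± 0.17, adjusted p = 0.214). The HNF, FOXA, PPAR and RXR factors themselves had 17 of 21, with a median of 0.06, and Ppard read 2.33 ± 0.472 and 3.41 ± 0.769 (adjusted p = 0.116).

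Most metabolic lists had a median above that of all promoters, without a call. These medians cover promoters with a peak in all 6 libraries and leave out those without a peak in some. Fatty acid oxidation and ketogenesis had 15 of 18 genes with a shared promoter, a median log2 change of 0.32 and 14 values above 0. In 6 of the 15 all 3 centred old values exceeded all 3 young ones, against 14% of all shared promoters. Crot, a peroxisomal carnitine acyltransferase, read 4.07, 4.02 and 3.88 in young and 6.51, 5.37 and 8.28 in old livers (0.79 ± 0.23 SE, limma adjusted p = 0.0567). Its RNA had a log2 change of -0.77 (edgeR adjusted p = 0.107). Cholesterol and lipid synthesis had 18 of 20 with a median of 0.23, and Acly, which makes cytosolic acetyl-CoA, read 4.11 ± 0.253 and 5.51 ± 0.812 (adjusted p = 0.255). Oxidative phosphorylation had all 20 of its 20 genes, with a median of 0.16, and Ndufa4 read 7.49 ± 0.995 and 9.70 ± 0.249 (adjusted p = 0.156). Ribosomal protein genes had 15 of 20, with a median of 0.14 and Rps14 at -0.66 (adjusted p = 0.147). Circadian clock genes had 17 of 19, with a median of 0.17 and Npas2 at -0.44 (adjusted p = 0.306). Gluconeogenesis and urea cycle genes had 4 of 14, with Slc25a15, the mitochondrial ornithine carrier, at 0.64 (adjusted p = 0.127). Bile acid synthesis and transport had 8 of 13, with a median of -0.05 and Cyp27a1 at 0.35 (adjusted p = 0.407). Cytochrome P450 and conjugation enzymes had 4 of 20, with a median of 0.43 and Por, the reductase that feeds P450 enzymes, at 0.59 (adjusted p = 0.144). In RNA, 4 of these 20 genes were lower and 1 higher, with summed levels of 19301 to 27843 CPM in young and 9277 to 15284 CPM in old livers. Lower were Cyp3a11, Cyp2c50, Ugt2b1 and Ugt2b38, and higher was Cyp26a1, which breaks down retinoic acid. Without 1 library at a time, 2 to 4 were lower and 0 to 2 higher. The bile acid genes summed to 6223 to 6741 and 3987 to 4882 CPM, without a called gene. These are the 2 of the 24 lists whose summed RNA lay lower in every old than in every young library, and 3 lay higher, the neutrophil, T and NK cell and TNF lists. Over the whole P450 list, 11 of the 20 had a promoter peak in more young than old libraries and none in more old ones. Among all genes with a promoter peak in at least 1 library, 18.1% had it in more young and 19.0% in more old libraries. The same tally was 5 and none of 13 for bile acid genes and 4 and 2 of 14 for gluconeogenesis and urea cycle genes. It was none and 2 of 18 for fatty acid oxidation, 2 and none of 20 for cholesterol and lipid synthesis, 2 and 2 of 20 for ribosomal protein genes, none and 1 of 19 for clock genes and none in either direction for oxidative phosphorylation. Among cell type markers it was 9 and 2 of 30 for hepatocytes, none and 9 of 14 for endothelium, none and 5 of 10 for neutrophils, 4 and 7 of 20 for macrophages, 2 and 5 of 14 for stellate cells, 4 and none of 10 for cholangiocytes, 2 and 2 of 18 for T and NK cells and 1 and 1 of 13 for B cells. Of the remaining lists, acute phase proteins had 5 and 2 of 16 and MHC class II genes 3 and 4 of 10, and in the others at most 2 genes went either way.

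Inflammatory lists lay on either side of the median of all promoters, without a call. TNF and NF-kB response genes had 16 of 20 shared, with a median of -0.04, and the chemokine gene Cxcl2 read 5.50 ± 1.71 and 3.40 ± 0.365 (log2 change -0.59, limma adjusted p = 0.181). Interferon-induced genes had 18 of 20, with a median of 0.05, and Oasl2 read 3.07 ± 0.257 and 4.41 ± 0.327 (adjusted p = 0.156). MHC class II genes had 3 of 10, with a median of 0.17 and H2-DMa at 0.55 (adjusted p = 0.144). Acute phase proteins had 6 of 16, with a median of -0.07 and Apcs, serum amyloid P, at 7.52 ± 0.53 and 4.62 ± 0.538 (-0.64, adjusted p = 0.0989). Its RNA had a log2 change of 1.75 (edgeR adjusted p = 0.18). Cell-cycle inhibitors and senescence genes had 10 of 14, with a median of 0.22 and Plaur, the urokinase receptor, at 0.59 (adjusted p = 0.141).

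Cell type markers were checked in the same libraries, because the tissue was not sorted. Of 30 hepatocyte identity genes, 28 had a promoter peak in some library, among them the promoters of Hnf4a, Foxa2, Foxa3 and Cebpa in all 6, and Alb and Apoa2 had none in any. Hepatocyte promoter peaks among the top 112125 numbered 19, 28 and 24 in young and 18, 23 and 16 in old livers. Cytochrome P450 and conjugation enzyme promoters with a peak numbered 11, 16 and 13 of 20 in young and 10, 12 and 5 in old livers. Young replicate 2 had the most in both lists. Endothelial marker promoters with a peak numbered 6, 9 and 9 of 14 in young and 12, 11 and 13 in old livers, and neutrophil marker promoters 2, 1 and 1 of 10 in young and 5, 3 and 4 in old livers. For both lists every old library was above every young one, as for 2 of the 24 lists, and in no list was every young library above every old one. Over all 55304 annotated genes, 32.6%, 33.4% and 33.0% had a promoter peak in young and 33.8%, 33.0% and 33.3% in old livers, with overlap. Macrophage and Kupffer cell markers numbered 11, 13 and 13 of 20 in young and 16, 9 and 14 in old livers, with overlap. T and NK cell markers had a peak at 2 or 3 of 18 and B and plasma cell markers at 2 or 3 of 13 in every library. Stellate cell and fibroblast markers ranged from 4 to 5 of 14 in young and from 4 to 7 in old livers, and cholangiocyte markers from 1 to 3 of 10 and from 1 to 2.

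**Figure D5:**
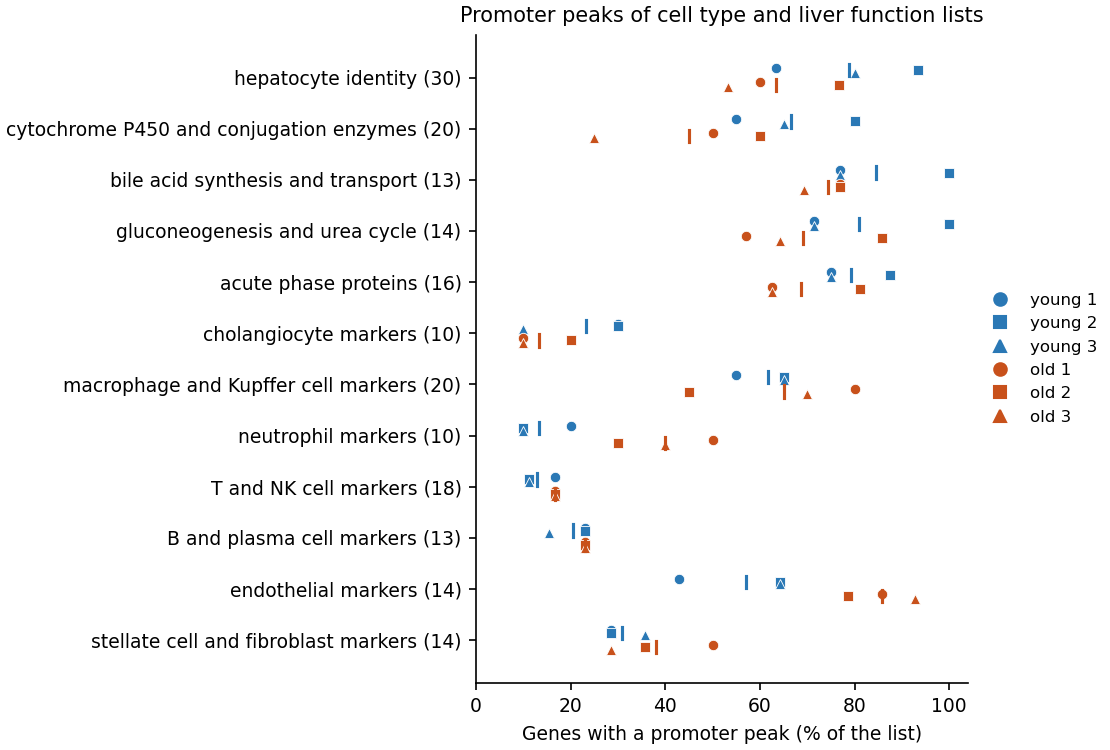
Share of the genes of 12 lists with a promoter peak among the 112125 strongest peaks (horizontal axis, percent of the list; vertical axis, list with its number of genes), with a point for each library and a bar for each age mean. Old libraries lie above young ones for the endothelial (11 to 13 of 14 genes against 6 to 9) and neutrophil markers (3 to 5 of 10 against 1 or 2).

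Few of these marker promoters were shared by all 6 libraries, so that their strength could seldom be followed. Shared marker promoters numbered 10 of 30 for hepatocytes, 3 of 20 for macrophages, 4 of 14 for endothelium, 2 of 14 for stellate cells, 2 of 13 for B cells, 1 of 10 for neutrophils and none for T cells and cholangiocytes. Tek, the angiopoietin receptor of endothelium, read 3.75, 3.76 and 3.35 in young and 7.63, 4.21 and 5.96 in old livers (log2 change 0.74 ± 0.24 SE, limma adjusted p = 0.0906). The 4 shared endothelial promoters had a median log2 change of 0.39, with 3 above 0, beside 0.11 over all shared promoters. The 10 of hepatocytes had 5 values above and 5 below 0 and a median of 0.01. Cebpa at 0.52 (adjusted p = 0.194) and Foxa2 at 0.50 (adjusted p = 0.140), both hepatocyte transcription factors, separated the ages only after centring, since old replicate 2, at 2.66 and 2.07, lay below young replicate 1, at 2.93 and 2.28. Fgg, the fibrinogen gamma chain, read 3.16, 3.76 and 3.59 against 2.12, 2.59 and 1.98 (-0.59 ± 0.22, adjusted p = 0.125). The 3 shared macrophage promoters had a median of -0.03, with Cd5l, a Kupffer cell protein, at 0.39 (adjusted p = 0.381), Tyrobp, an adaptor of myeloid receptors, at -0.03 and C1qb, a complement component, at -0.30 (adjusted p = 0.514). Of stellate cells, Hgf, the hepatocyte growth factor, read 3.69 ± 0.231 and 4.67 ± 0.389 (0.40, adjusted p = 0.359), and Col1a1, a collagen chain, had a log2 change of -0.24 (adjusted p = 0.671). The neutrophil protein S100a8 read 3.86 ± 1.38 and 4.56 ± 0.805 (adjusted p = 0.489), and Xbp1 of plasma cells, below 0 like Blnk, the other shared promoter of that list, 3.37 ± 0.411 and 3.17 ± 0.728 (adjusted p = 0.939).

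In liver RNA, some markers of leukocytes were higher in old liver, and the counts depended on single libraries. The test called 9 of 20 macrophage and Kupffer cell markers higher, against 1.69% of all genes, and 6 of 7 tested neutrophil markers, 4 of 10 B and plasma cell markers and 1 of 14 T and NK cell markers, at the thresholds above. Without 1 library at a time, a comparison chosen after seeing the data, the counts ranged from 1 to 11 for macrophage, from 0 to 8 for neutrophil, from 1 to 7 for B and plasma cell and from 0 to 2 for T and NK cell markers. Without old replicate 3 they were 2, 0, 1 and 0, and without young replicate 1 they were 1, 0, 1 and 1. Old RNA replicates 1 and 3 stood apart, with summed neutrophil markers of 92.3 and 140 CPM against 20.3 and 15.2 in old replicates 2 and 4. Summed acute phase proteins moved with them, at 39176 and 66623 CPM against 9738 and 11520, and at 7230 to 10263 in young livers. Of these 16 proteins 5 were called higher, with none called without old replicate 3 or without any 1 of the 4 young replicates, and 8 without old replicate 2. Lyz2, a lysozyme of myeloid cells, rose from 161 ± 41.6 to 434 ± 136 CPM (log2 change 1.43 ± 0.28, edgeR adjusted p = 0.0252), and Jchain, the joining chain of secreted antibodies, from 0.801 ± 0.29 to 28.7 ± 20.7. The summed level of the macrophage list ranged from 910 to 1462 CPM in young and from 1458 to 3010 in old livers, and that of the neutrophil list from 2.88 to 6.14 and from 15.2 to 140. The summed level of the hepatocyte list ranged from 191399 to 281491 and from 164683 to 266418, and that of the endothelial list from 500.2 to 564 and from 509 to 568. Of the 14 endothelial markers none was higher and 1 lower, Lyve1, a hyaluronan receptor of sinusoidal and lymphatic endothelium, at 16.1 ± 4.53 and 6.60 ± 1.09 CPM (log2 change -1.28, edgeR adjusted p = 0.0182). That call was lost without old replicate 2 or 3 and without young replicate 1 or 3. The neutrophil genes Camp, Ly6g and Mmp8 were too low to be tested. Of the hepatocyte list, 1 of 29 genes was lower, Cyp3a11, the main drug-metabolizing P450, at 2848 ± 848 and 248 ± 213 CPM (edgeR adjusted p = 0.0177), and none was lower without old replicate 3 or without young replicate 3. Some leukocyte markers were thus higher at the age at which regions holding SPI1 letters were stronger, and their part in that gain was not tested.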

How the data were processed

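Nuclei of frozen livers were tagmented with Tn5. Per the labels and the methods of the study, reads were aligned to mm10 with Bowtie2 2.3.5.1, duplicates and reads of low mapping quality were removed, and the authors called peaks in each library with MACS2, so that no replicates were pooled. The deposited narrowPeak files hold fold enrichment at the summit, a ratio of signal to local background, and −log10 p and −log10 q values. Intervals listed several times were taken once, with their strongest summit. Read ends were estimated from the background that fold enrichment implies. The authors counted RNA-seq reads per gene with HTSeq 0.12.4 after HISAT2 2.2.1, and the deposited values are raw counts, with 20168075 to 26676371 per liver library and 8.05% to 11.4% of reads in rows that name no gene, which were left out.

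Peaks were ranked by −log10 p and cut at 112125, the smallest number in a library. Start sites came from GENCODE vM21, and sequences from RefSeq GRCm38. Per-library values were compared with exact two-sided permutation tests over the 3 young and 3 old libraries. Shared regions, joined where peaks overlapped by at least 1 bp, were tested with limma 3.58.1 with a trend on median-centred log2 fold enrichment, and RNA with edgeR 4.0.16, both with Benjamini-Hochberg adjustment over all features and R 4.3.3. On simulated data with 200 of 34822 regions changed by a fold of 2, 156 were recovered with 4 false calls. The simulated noise was independent between regions and had no library that stood apart, so these counts do not carry over to the real libraries.

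Named regions were the 10 stronger and 10 weaker promoters, and the 4 stronger and 4 weaker distal regions, with the smallest p-value among regions whose ages did not overlap after centring, 1 region per gene, leaving out predicted gene models. From each of 24 lists, called members, or otherwise the member with the smallest p-value, were named. The members and lists were chosen with earlier results of these data known. Alternatives changed the centring, the measure, the peak filters, the overlap, GC content, the pairing and the libraries used. For named regions, the alternatives that changed the peak filters or the overlap were not read.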

Additional observations from a re-analysis of the deposited data

Results flagged for a closer look

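Among 35 list genes read in RNA, 70 groups of 4 liver libraries were tested for a sample far from the rest, and 2 young groups had one. Chance alone gives about 1 in 20, so that 2 of 70 are no more than chance gives. Cdkn2a, a cell-cycle inhibitor, was at 0.0437 CPM in young replicate 1 and at 0 in the other young livers, below all 4 old livers. With the other young livers at 0, any value above 0 would be flagged. Lcn2, an acute phase protein, was at 24.3 CPM in young replicate 3, with the next young liver at 9.42, and both ages stayed apart.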

How the results depend on the processing

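Old replicate 2 decided the sign of the difference in peak number, which was 2201 without it and -10161 without old replicate 1. Without young replicate 1 the difference in median fold enrichment was 0.00713, and without young replicate 2 it was -0.156. The small difference in NFY letters turned to -0.0469 with distal summits alone and to -0.0320 without old replicate 1, against 0.0925 without old replicate 3, and the liver minus kidney difference in promoter share was 1.06 percentage points among 20000 peaks. For distal regions with CTCF letters the difference was 0.00892 with the GC trend removed, 0.00813 without young replicate 1, -0.0356 without young replicate 2 and 0.00823 without old replicate 2, and with NF-kB letters it was -0.00818 without young replicate 3 and 0.133 without young replicate 2. Xbp1 changed sign with pileup (0.00658 on the log2 scale) and without old replicate 2 (0.12), and was -0.14 without old replicate 1. The cause of these was not tested. Directions of the other motif groups, of regions without a kidney peak and of promoters against other regions held under every alternative run.

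Counts of stronger shared regions moved to 126 without centring, 901 with pileup, 418 with pileup per 10 M read ends and no centring (chosen after seeing the data), 492 with −log10 p, 54 with −log10 q of at least 5, 46 with an overlap of 50%, 311 with the replicate block and the GC trend removed and 349 with 2 of 3 libraries per age. They ranged from 8 (without young replicate 1) to 593 (without old replicate 2). The q limit, the overlap and the 2 of 3 rule tested 16756, 15318 and 56638 regions in place of 34822. Weaker regions moved to 1468, 2277, 1120, 199 and 146 with pileup, pileup per 10 M read ends, −log10 p, −log10 q and the overlap, and ranged from 51 (without young replicate 3) to 1691 (without old replicate 2). Same-numbered libraries did not deviate together (r = 0.0139, -0.00622 and 0.0125), and with the replicate block 187 regions were stronger and 639 weaker.

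Genes with a shared promoter that were higher in RNA numbered 86, and 40 with the replicate block, 205 with DESeq2 and 20 to 167 with a library left out. Lower ones numbered 14, 38 with DESeq2 and 9 to 23 with a library left out. Exact permutation tests of 3 libraries against 3 cannot go below p = 0.1, and 0.25 when paired.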
